A study of Mus musculus with 3 samples.

Results

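The 10 genes described here are transcriptional outputs and feedback regulators of the ERK pathway: Etv4, Etv5, Fosl1, Egr1, Ccnd1, Dusp4, Dusp6, Spry4, Spred1 and Hbegf. They were chosen by name, as 10 of the 20471 genes of the count table, and all 10 were found. Mouse embryonic fibroblasts (MEF) labelled as wild type, from embryo tissue, were cultured for 4 days and profiled by DRUG-seq2, an RNA-seq assay that barcodes the RNA of each well during reverse transcription and pools the wells of a plate into 1 library. Each compound well held 1 compound of a commercial kinase inhibitor library in a medium the labels call CFAE+8, and the labels state no dose. Over 3 plates, 223 screening wells reached 10% of their plate's median total count and were kept: 218 compound wells, which held 211 compounds, and 5 wells of plate 3 named bC8FAE, which from their name were taken as the screening medium with no compound. The other media wells also stood on plate 3, with 4 wells each of bC6FAE[10], bCLFAE, bCSFAE and MEF and 3 wells each of bC6FAE[2], bCFAE and basal. No source used here states what these media contain, so their labels serve as bare names. Because no vehicle control well was named, each compound or class of compounds was set against the other screening wells of its plate, most of which held another kinase inhibitor.

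In the ERK pathway, growth factors bind receptor tyrosine kinases such as the FGF receptors, and the signal passes through RAS to the kinases RAF, MEK and ERK. Active ERK induces transcription factors of the AP-1, EGR and ETS families and the cyclin that drives entry into the cell cycle. It also induces its own brakes, which are phosphatases that inactivate ERK and Sprouty and SPRED proteins that act upstream of RAF, so the RNA of these genes is widely used as a readout of pathway activity. In embryonic tissues Etv4 and Etv5 are well-known targets of FGF signalling.

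The total count per screening well was 45416 to 591025 on plate 1 (median 318876.5), 92437 to 1206219 on plate 2 (median 611204) and 119295 to 703918 on plate 3 (median 433274). The 30 media wells had 119295 to 726228 counts, and the shallowest were bC8FAE well 4 with 119295 and MEF well 3 with 138747. Levels are given as CPM (counts scaled to a well total of 1e6), with no length scaling, so they compare wells and not genes. All 9 fibroblast markers examined (Col1a1, Col1a2, Col3a1, Thy1, Pdgfra, Pdgfrb, Vim, Dcn and Lum) had a median above 0 in the media wells, where they summed to 4401 to 7600 CPM, and the leukocyte marker Ptprc was at 0 in all 30 media wells. The 4 macrophage markers in the table, of 5 listed, summed to 20.9 to 324 CPM there, and 3 of them had a median above 0. Nothing in the labels says whether wells of the same medium came from separate cultures, so p values measure the spread between wells, which may be technical. In bulk wells such as these, fewer expressing cells and less RNA per cell cannot be told apart.

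At the level of counts the 10 genes fell into 2 kinds. Ccnd1 was the best covered, with a median of 395 counts per well on plate 1, 803 on plate 2 and 675 on plate 3, and the median well held 12 counts or more of Etv4, Etv5, Fosl1, Spred1 and Hbegf on each plate. Egr1, Dusp4, Dusp6 and Spry4 had median counts of only 1 to 8, and Dusp6 was at 0 in 31 of the 90 wells of plate 1. The typical screening well had 130, 170 and 158 CPM of Etv4 on plates 1, 2 and 3 (medians over wells), 81.9, 81.9 and 77.7 CPM of Etv5, and 1334, 1372 and 1636 CPM of Ccnd1. Medians were 110, 105 and 129 CPM for Fosl1, 71.6, 72.9 and 90.9 CPM for Spred1, and 40.6, 39.0 and 45.6 CPM for Hbegf. The plate medians of these 6 genes therefore lay close together, although no well type was present on all plates.

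Promoter sequence was at hand for 3 of the 10 genes, Spred1, Dusp6 and Etv5, and is shown because ETS factors, to which Etv4 and Etv5 belong, are a main nuclear output of ERK. The bases printed lie upstream of the gene start in both RefSeq and GENCODE vM21, 5′ to 3′ on the gene's strand (RefSeq sequence, GRCm38.p6, the patch release of mm10), with the ETS core GGAA or its reverse complement TTCC in capitals. The 250 bases for Spred1 are chr2:117120821-117121070 on the plus strand, and the 250 for Dusp6 are chr10:99262981-99263230 on the plus strand. The 101 for Etv5 are chr16:22439720-22439820 on the minus strand. For Spred1 the RefSeq start lies upstream of the GENCODE start at 117121374, and the bases after it were in no GENCODE transcript. For Etv5 the RefSeq start lies inside the GENCODE gene. Its window is therefore the part before the GENCODE start, farthest from the RefSeq start.
Spred1: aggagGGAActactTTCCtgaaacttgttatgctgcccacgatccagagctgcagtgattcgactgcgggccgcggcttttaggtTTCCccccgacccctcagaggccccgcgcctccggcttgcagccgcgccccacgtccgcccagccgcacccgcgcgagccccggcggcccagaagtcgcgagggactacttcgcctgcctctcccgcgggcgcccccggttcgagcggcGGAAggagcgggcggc
Dusp6: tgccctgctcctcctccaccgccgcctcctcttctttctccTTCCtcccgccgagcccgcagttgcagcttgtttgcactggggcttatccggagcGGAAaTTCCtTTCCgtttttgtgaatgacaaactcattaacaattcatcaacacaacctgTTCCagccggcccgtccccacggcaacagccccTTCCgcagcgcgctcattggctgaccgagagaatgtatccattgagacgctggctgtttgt
Etv5: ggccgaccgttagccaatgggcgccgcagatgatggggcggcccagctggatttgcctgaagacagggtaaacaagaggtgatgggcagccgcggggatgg

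The Spred1 window held 4 matches to the ETS core on either strand, the Dusp6 window 6 and the Etv5 window 0. A match to these 4 letters is common: 93.4% of 32851 promoter windows of 250 bases held at least 1, and 68.0% did over the same 101 positions as the Etv5 window. The AP-1 motif TGANTCA, bound by FOS family proteins such as FOSL1, had no match in the 3 windows, against 6.75% of all windows of 250 bases and 2.53% over the 101 positions. The cAMP response element TGACGTCA was likewise not found, against 1.55% and 0.167%. GC content was 70.8% for Spred1, 56.4% for Dusp6 and 64.4% for Etv5. These are matches of letters and show no binding.

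On mm10 the genes lie, by GENCODE vM21, on 8 chromosomes: Etv4 at 11:101769742-101785371 (minus strand), Etv5 at 16:22381309-22439719 (minus), Fosl1 at 19:5447547-5455946 (plus), Ccnd1 at 7:144929931-144939925 (minus), Dusp4 at 8:34807297-34819894 (plus), Dusp6 at 10:99263231-99267489 (plus) and Spred1 at 2:117121374-117182279 (plus). The other genes share chromosome 18, with Egr1 at 18:34859823-34864984 (plus), Hbegf at 18:36504927-36515805 (minus) and Spry4 at 18:38586247-38601415 (minus). Exons of Fosl1 overlap Ccdc85b and exons of Ccnd1 overlap LTO1 on the opposite strand. Since no source used here says whether counting used the strand, reads of these pairs cannot be told apart.

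The media wells ask how these genes stand in the screening medium without a compound. In bC8FAE against MEF and in bCFAE against basal, the transcription factors Etv4, Etv5 and Fosl1, the cyclin Ccnd1 and the ligand Hbegf were higher. Their rises were between 1.48 and 3.60 on the log2 scale. The feedback inhibitor Spred1 was higher in the first of these comparisons, and the immediate early gene Egr1 in neither.

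Etv4 encodes an ETS transcription factor of the PEA3 subfamily. It had 188, 154, 139, 176 and 161 CPM in the bC8FAE wells and 165, 194 and 205 CPM in the bCFAE wells, against 25.4, 11.7 and 3.17 CPM in the basal wells and 17.9, 17.1, 43.2 and 17.9 CPM in the MEF wells. The lowest bC8FAE well was thus well above the highest MEF well. The log2 fold change was 2.89 ± 0.24 for bC8FAE over MEF (SE; adjusted p = 6.77e-19, edgeR quasi-likelihood test) and 3.60 ± 0.28 for bCFAE over basal (SE). Without basal well 1 the fold change for bCFAE over basal was 4.46 on the log2 scale.

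Etv5, the close paralogue of Etv4, had 85.0, 65.2, 55.7, 75.4 and 81.9 CPM in bC8FAE and 49.6, 55.1 and 46.5 CPM in bCFAE, against 8.46, 8.81 and 9.51 CPM in basal and 13.4, 17.1, 0 and 3.59 CPM in MEF wells. These groups did not overlap either. Its log2 fold change was 2.66 ± 0.34 for bC8FAE over MEF (SE; adjusted p = 1.64e-10, edgeR) and 2.35 ± 0.42 for bCFAE over basal.

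Fosl1 encodes FRA-1, a FOS family subunit of AP-1. It had 130, 152, 132, 193 and 110 CPM in bC8FAE and 162, 160 and 149 CPM in bCFAE, against 47.9, 47.0 and 44.4 CPM in basal and 29.1, 65.4, 79.3 and 25.1 CPM in MEF wells. The groups were again separate, with a smaller gap than for the ETS factors. The log2 fold change was 1.53 ± 0.20 for bC8FAE over MEF (SE; adjusted p = 6.2e-10, edgeR) and 1.63 ± 0.21 for bCFAE over basal.

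Ccnd1, cyclin D1, partners the kinases CDK4 and CDK6 at entry into the cell cycle. It had 1605, 1384, 1323, 2356 and 1210 CPM in bC8FAE and 1418, 1314 and 1266 CPM in bCFAE, against 228, 226 and 219 CPM in basal and 291, 188, 245 and 251 CPM in MEF wells. The highest well of basal and MEF, 291 CPM, was far below the lowest well of bC8FAE and bCFAE, 1210 CPM. The log2 fold change was 2.54 ± 0.13 for bC8FAE over MEF (SE; adjusted p = 4.13e-32, edgeR) and 2.44 ± 0.15 for bCFAE over basal.

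Egr1, an immediate early zinc finger factor, did not follow the other transcription factors. It had 9.88, 21.7, 32.9, 58.7 and 20.5 CPM in bC8FAE and 25.6, 24.8 and 27.9 CPM in bCFAE, against 28.2, 8.81 and 28.5 CPM in basal and 26.8, 8.53, 7.21 and 32.3 CPM in MEF wells. The groups overlapped, and the log2 fold change was 0.11 ± 0.40 for bC8FAE over MEF (SE; adjusted p = 0.87, edgeR) and 0.11 ± 0.41 for bCFAE over basal (adjusted p = 0.859).

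Hbegf encodes a membrane-anchored ligand of the EGF receptor. It had 39.5, 45.6, 68.3, 16.8 and 20.5 CPM in bC8FAE and 105, 106 and 90.7 CPM in bCFAE, against 11.3, 5.87 and 12.7 CPM in basal and 13.4, 8.53, 21.6 and 17.9 CPM in MEF wells. In bCFAE it was above every other media well, while 2 of the bC8FAE wells fell within the range of the MEF wells. The log2 fold change was 1.48 ± 0.36 for bC8FAE over MEF (SE; adjusted p = 0.000493, edgeR) and 3.20 ± 0.35 for bCFAE over basal.

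Spred1 encodes a membrane-associated inhibitor of RAS to RAF signalling and is the feedback regulator best covered by counts. It had 105, 93.4, 111, 201 and 92.1 CPM in bC8FAE and 70.7, 41.3 and 46.5 CPM in bCFAE, against 50.7, 41.1 and 57.1 CPM in basal and 51.4, 48.3, 43.2 and 43.0 CPM in MEF wells. It was higher in bC8FAE than in MEF, with a log2 fold change of 1.11 ± 0.22 (SE; adjusted p = 1.54e-05, edgeR), but bCFAE and basal overlapped (-0.03 ± 0.26, adjusted p = 0.951).

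Together 6 of the 7 members tested were higher in bC8FAE than in MEF and 0 were lower, while 14.8% of all 6985 genes tested were called higher. In bCFAE against basal 5 of 7 were higher, against 16.7% of all genes. The median log2 fold change of the 7 members was 1.53 for bC8FAE over MEF and 2.35 for bCFAE over basal, beside 0.00 and 0.01 over all genes. These counts were the same whichever of the 30 wells was left out. The 4 macrophage markers summed to 32.6 to 83.8 CPM in bC8FAE wells and 140.9 to 324 CPM in MEF wells, with Ptprc at 0 in both. It summed to 40.6 to 44.2 CPM in bCFAE and 87.4 to 250.5 CPM in basal wells, and 5 epithelial markers to 101 to 121 CPM in bCFAE and 28.5 to 52.9 CPM in basal wells, with Epcam and Cdh1 at 0 in both media. The part of these markers in the differences was not tested.

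The genes of the dual-specificity phosphatases DUSP4 and DUSP6, which inactivate ERK in the nucleus and the cytoplasm, were below the count filter in the media wells. So was the gene of the Sprouty protein SPRY4. Dusp4 averaged 14.7 ± 6.15 CPM in bC8FAE and 15.6 ± 5.74 CPM in bCFAE, against 3.95 ± 1.67 CPM in basal and 4.18 ± 3.40 CPM in MEF wells (SD, n = 5, 3, 3 and 4). Dusp6 averaged 8.58 ± 5.90 CPM in bC8FAE and 13.4 ± 4.53 CPM in bCFAE, against 6.15 ± 5.66 CPM in basal and 3.62 ± 3.0 CPM in MEF wells. Spry4 averaged 8.02 ± 6.27 CPM in bC8FAE and 8.78 ± 2.54 CPM in bCFAE, against 0.979 ± 1.70 CPM in basal and 5.58 ± 2.34 CPM in MEF wells. Single wells held at most 14 counts of these genes, and no order between media was detectable at this depth for Dusp6 or for bC8FAE against MEF in Spry4. With no filter on low counts, edgeR called Dusp4 (log2 fold change 1.87, adjusted p = 0.0388) and Spry4 (2.82, adjusted p = 0.0426) higher in bCFAE than in basal. The basal wells held 4 counts of Dusp4 and 1 of Spry4 in all. Dusp6 was not called in that comparison, and none of these genes was in bC8FAE over MEF.

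**Figure D1:**
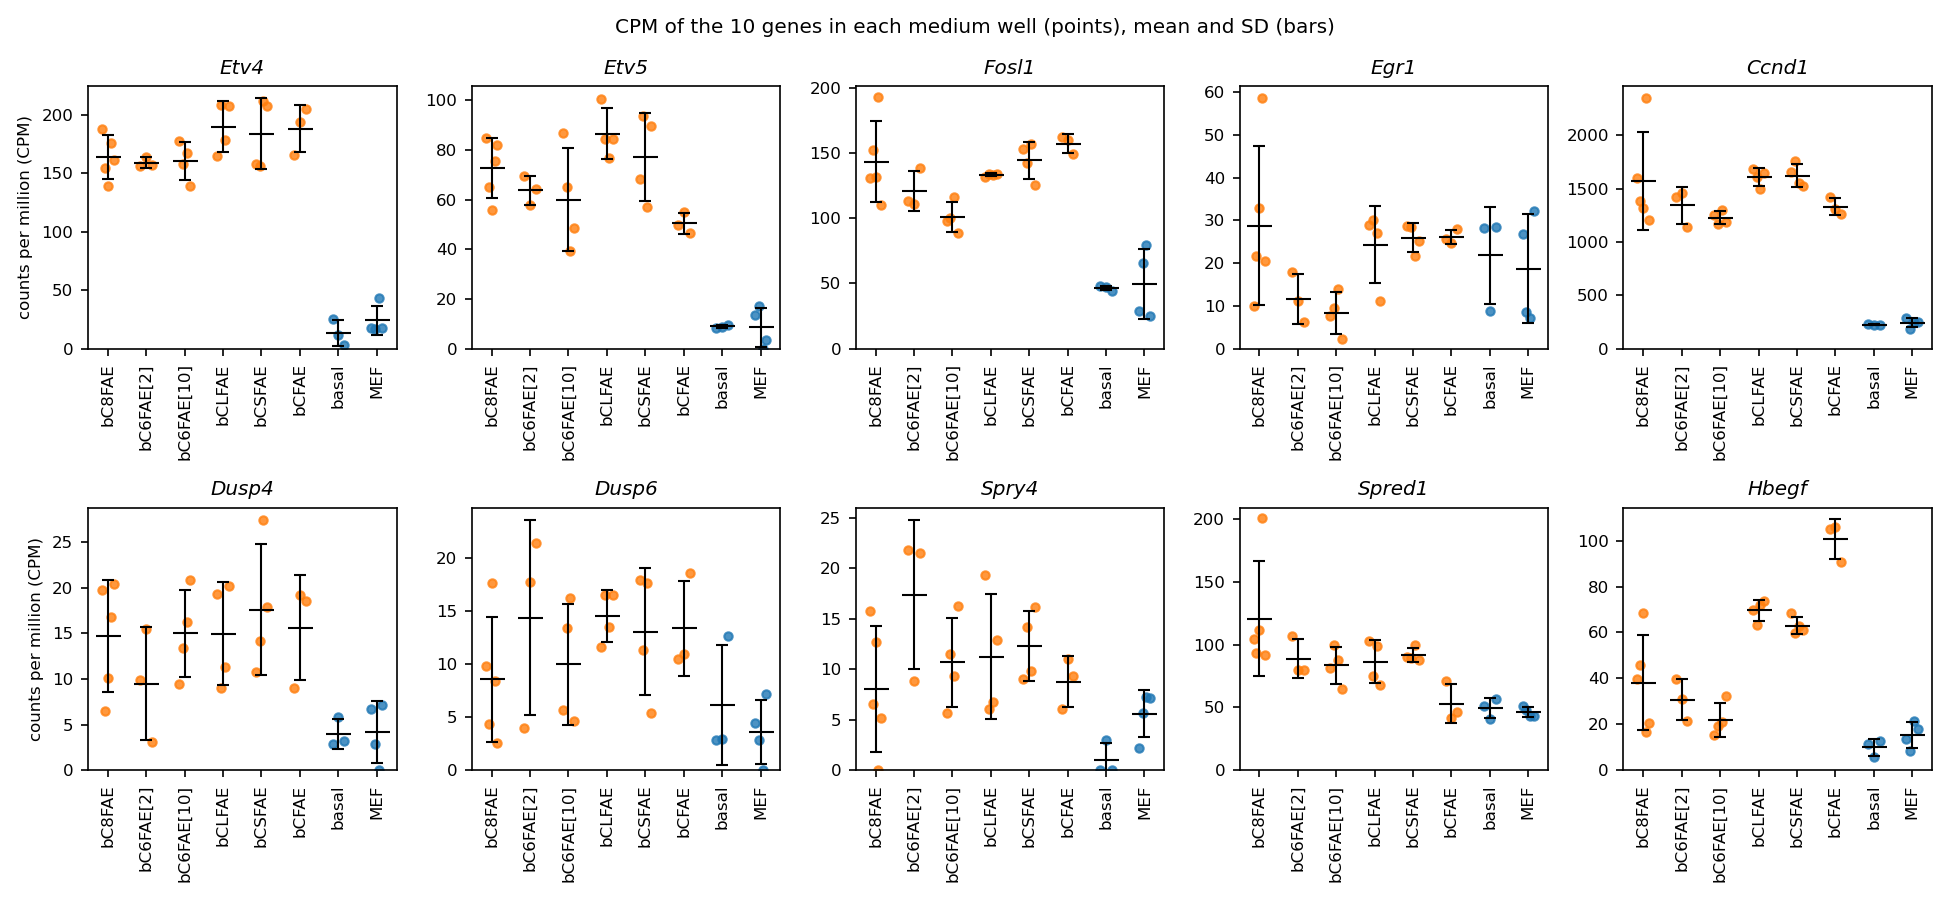
CPM of each gene in every media well (points, 1 per well; black bars are the mean and SD) by medium, with a linear axis for each gene. Etv4, Etv5, Fosl1 and Ccnd1 in the basal and MEF wells lie below all wells of the other 6 media, Egr1 in the basal and MEF wells overlaps bC8FAE and bCFAE, and Hbegf is highest in bCFAE.

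Basal and MEF wells themselves were not told apart by these genes. Of the 7 members tested 0 were called in basal against MEF by edgeR and 0 had an unadjusted p under 0.05. DESeq2 also called 0, with 1 member left without an adjusted p. Over all genes 0.601% were called in either direction (42 of 6985), and 648 had an unadjusted p under 0.05.

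Among the media whose names end in FAE, Spred1 and Hbegf moved in opposite directions. Spred1 was higher in bC8FAE than in bCFAE by 1.04 ± 0.19 on the log2 scale (SE; adjusted p = 2.12e-05, edgeR), and Hbegf was lower at -1.26 ± 0.21 (adjusted p = 1.79e-06). The wells of these media, listed above, did not overlap for either gene. The other 5 members tested were not called, among them Etv4 (-0.18 ± 0.14), Ccnd1 (0.19 ± 0.12) and Etv5 (0.53 ± 0.21, adjusted p = 0.0935). So 1 of 7 members was higher and 1 lower, beside 5.35% of all genes higher and 5.90% lower. The 5 epithelial markers summed to 19.8 to 48.1 CPM in bC8FAE wells and 101 to 121 CPM in bCFAE wells, with Epcam and Cdh1 at 0 in both, and their part in these differences was not tested.

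The same pair was called with bC6FAE[2], bC6FAE[10] and bCSFAE in place of bC8FAE. These comparisons share the bCFAE wells, so their values are set side by side only. Spred1 had 107, 79.9 and 79.8 CPM in bC6FAE[2], 81.1, 99.8, 88.1 and 65.0 CPM in bC6FAE[10], 103, 75.4, 99.2 and 68.0 CPM in bCLFAE, and 89.9, 89.6, 100.0 and 87.8 CPM in bCSFAE wells. Its log2 fold change over bCFAE was 0.83 ± 0.22 for bC6FAE[2] (SE; adjusted p = 0.00547, edgeR), 0.70 ± 0.20 for bC6FAE[10] (0.00905), 0.70 ± 0.20 for bCLFAE (0.0151) and 0.77 ± 0.19 for bCSFAE (0.00448).

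Each of these 4 calls of Spred1 was lost without bCFAE well 2, when the log2 fold change was 0.65 for bC6FAE[2], 0.50 for bC6FAE[10], 0.50 for bCLFAE and 0.58 for bCSFAE. The call was also lost in bC6FAE[2] without its well 1 (0.68), in bC6FAE[10] without its well 2 (0.60), and in bCLFAE without its well 1 (0.60) or 3 (0.63) or bCFAE well 3 (0.64). The call of Spred1 in bC8FAE over bCFAE held whichever well was left out.

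Hbegf had 39.6, 31.1 and 21.5 CPM in bC6FAE[2], 15.1, 19.2, 20.9 and 32.5 CPM in bC6FAE[10], 69.7, 63.3, 72.2 and 73.5 CPM in bCLFAE, and 68.3, 59.8, 62.8 and 60.9 CPM in bCSFAE wells. All of these lay below the lowest bCFAE well. The log2 fold change over bCFAE was -1.59 ± 0.25 for bC6FAE[2] (SE; adjusted p = 6.46e-07, edgeR), -2.19 ± 0.24 for bC6FAE[10] (1.98e-12) and -0.71 ± 0.18 for bCSFAE (0.00664), and -0.53 ± 0.18 for bCLFAE, which was not called (0.0627). Without bCFAE well 2 the call in bCSFAE was lost (-0.67, adjusted p = 0.0581).

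bC6FAE[10] also had lower Fosl1 (98.1, 99.8, 116 and 88.2 CPM) than bCFAE, at -0.61 ± 0.15 (SE; adjusted p = 0.00228, edgeR), and lower Egr1 (7.54, 9.60, 13.9 and 2.32 CPM), at -1.55 ± 0.43 (adjusted p = 0.00562). bCLFAE had higher Etv5 (101, 84.4, 76.7 and 84.6 CPM) than bCFAE, by 0.78 ± 0.20 (adjusted p = 0.00579). In bCSFAE the corresponding value for Etv5 was 0.60 ± 0.20 and was not called (adjusted p = 0.0569).

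By count, bC6FAE[2] against bCFAE had 1 of 7 members higher and 1 lower (4.92% and 3.85% of all genes), bC6FAE[10] 1 higher and 3 lower (7.60% and 6.20%), bCLFAE 2 higher (3.06%) and bCSFAE 1 higher and 1 lower (3.11% in each direction). In bC6FAE[10] against bC6FAE[2] edgeR and DESeq2 called 0 members, and 0 had an unadjusted p under 0.05 (0.487% of all genes called, 552 with an unadjusted p under 0.05). In bCLFAE against bCSFAE both tools likewise called 0 members, with 0 under an unadjusted p of 0.05 (0.0286% of all genes called, 348 under 0.05).

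Ordered by mean level, Etv4, Etv5, Fosl1 and Ccnd1 each had a single gap between neighbouring media without overlap, which lay between the 6 media whose names end in FAE and the pair basal and MEF. The means of Etv4 in those 6 media ran from 159 ± 4.44 CPM in bC6FAE[2] (SD, n = 3) to 190 ± 21.8 CPM in bCLFAE (SD, n = 4), and neighbours in the order overlapped. Hbegf had a gap only below its highest medium, between bCFAE at 101 ± 8.63 CPM (SD, n = 3) and bCLFAE at 69.7 ± 4.53 CPM (SD, n = 4). For Egr1, Dusp4, Dusp6, Spry4 and Spred1 all neighbours in the order overlapped.

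The target classes ask which kinase inhibitors alter these genes in the screening medium. Classes were written from general knowledge of each compound's main target, and 26 of them were tested, each against the remaining screening wells of its plates. The spread in these fits came from all wells together, most of them outside the class. The SE and p of a class therefore do not measure the spread between its compounds. The 3 compounds classed as MEK inhibitors gave the widest fall: all 8 members that could be tested were lower. These were trametinib, an allosteric inhibitor of MEK1 and MEK2, GDC_0623, another allosteric MEK inhibitor, and Ro_5126766, which binds both RAF and MEK, with 1 well each on plate 1.

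Trametinib (249434 counts in all) left 4.01 CPM of Etv4 and GDC_0623 24.1 CPM and Ro_5126766 22.0 CPM, against a median of 132 CPM in the other 87 wells of the plate (range 23.1 to 201). Etv5 had 4.01, 12.1 and 88.1 CPM in the same order, against a median of 82.3 CPM (18.6 to 140). For Etv5 the Ro_5126766 well ranked 49 of 90 from the lowest, but its 88.1 CPM is 4 counts. That is too few to show a fall or its absence.

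Fosl1 had 8.02, 15.1 and 44.0 CPM in the trametinib, GDC_0623 and Ro_5126766 wells, against a median of 111 CPM in the other wells (0 to 296). Ccnd1 had 60.1, 509 and 484 CPM, against a median of 1342 CPM (436 to 2093), and the trametinib well was the lowest of the plate. Spred1 had 0, 9.04 and 88.1 CPM, against a median of 72.0 CPM (16.6 to 148), so trametinib and GDC_0623 were below all other wells. The 88.1 CPM of Ro_5126766 is 4 counts, again too few to show a fall or its absence. Hbegf had 24.1, 3.01 and 0 CPM, against a median of 41.8 CPM (4.00 to 149). The GDC_0623 value is 1 count. In the Ro_5126766 well 3 counts would be 66.1 CPM, above that median, so its 0 shows no fall.

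The Ro_5126766 well had 45416 counts, 14.3% of the plate's median, and its levels rest on 1 to 4 counts for Etv4, Etv5, Fosl1 and Spred1. Egr1 was at 0 counts in all 3 MEK inhibitor wells, against a median of 11.9 CPM and a mean of 13.7 CPM in the other wells. Set at 3 counts over its summed total, the class was at least 2.86-fold below that mean. Of the other 87 wells 6 were also at 0. Dusp4 had 1 count over the 3 wells, a ratio of 0.130 to the other wells (95% counting interval 0.00329 to 0.723).

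As a class against the other wells, MEK inhibitors gave log2 fold changes of -3.07 ± 0.44 for Etv4 (SE; adjusted p = 1.66e-08, edgeR), -2.54 ± 0.44 for Etv5, -3.03 ± 0.56 for Fosl1, -2.08 ± 0.30 for Ccnd1 (2.63e-08), -2.62 ± 0.53 for Spred1 (6.37e-05) and -2.13 ± 0.66 for Hbegf (0.0133). Egr1 (adjusted p = 0.00838) and Dusp4 (adjusted p = 0.0282) were also called lower, and Dusp6 and Spry4 were below the count filter. The 8 of 8 called stand beside 10.4% of all 6450 genes called lower. The median log2 fold change of the 8 was -2.66, or -2.58 with Egr1 at its bound, beside -0.05 over all genes tested.

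Without Ro_5126766, the shallowest well, the 8 were called, with Spred1 at -3.78 and Etv5 at -3.36 on the log2 scale. Without trametinib 6 were called, with Spred1 at -1.81, Etv5 at -1.90 and Ccnd1 at -1.47 on the log2 scale, and the calls of Egr1 (adjusted p = 0.102, edgeR) and Dusp4 (0.0626) were lost. Without GDC_0623 5 were called, with Etv4 at -4.25, and Dusp4 (-1.84), Egr1 (adjusted p = 0.0995, edgeR) and Hbegf (-1.38) were lost. The share of all genes called was not set beside these counts.

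FGFR inhibitors, which block the receptors for FGF, were the only other class with most of its tested members called lower. The class held erdafitinib, a pan-FGFR inhibitor, FIIN_2, an irreversible FGFR inhibitor, and SU_5402, an older inhibitor of FGFR and VEGFR, each in 1 counted well of plate 2. Etv4 had 16.5 CPM with erdafitinib, 25.9 CPM with FIIN_2 and 185 CPM with SU_5402, against a median of 171 CPM in the other 84 wells (32.5 to 262). Etv5 had 11.0, 14.4 and 66.8 CPM in that order, against a median of 82.2 CPM (25.0 to 127). The erdafitinib and FIIN_2 wells were the lowest 2 of the plate for both genes, and SU_5402 lay inside the range of the other wells.

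Fosl1 had 4.14 CPM with erdafitinib, 8.64 CPM with FIIN_2 and 84.8 CPM with SU_5402, against a median of 106 CPM in the other wells (25.0 to 283). Ccnd1 had 345, 231 and 1431 CPM in that order, against a median of 1379 CPM (390.9 to 2277). Spred1 had 19.3, 37.5 and 61.7 CPM, against a median of 72.9 CPM (23.1 to 125), and Hbegf had 17.9, 5.76 and 39.8 CPM, against a median of 39.0 CPM (6.66 to 102). The first 2 compounds were thus below every other well for Etv4, Etv5, Fosl1 and Ccnd1, but not in both wells for Spred1 and Hbegf.

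As a class, FGFR inhibitors had lower Etv4, at a log2 fold change of -1.08 ± 0.30 (SE; adjusted p = 0.0081, edgeR), Etv5 at -1.38 ± 0.27, Fosl1 at -1.57 ± 0.36, Ccnd1 at -1.03 ± 0.24, Dusp4 at -2.07 ± 0.57 and Spred1 at -0.89 ± 0.23 (adjusted p = 0.00388). Each value pools compounds whose levels differed, as listed above, and its SE does not measure that spread. Egr1 (-0.32 ± 0.49) and Hbegf (-0.93 ± 0.43, adjusted p = 0.143) were not called. The 6 of 8 called lower stand beside 4.83% of all genes. Without SU_5402 8 members were called lower, with Etv4 at -3.22, Fosl1 at -4.32, Ccnd1 at -2.39 and Hbegf at -1.83 on the log2 scale. Egr1 was not among them (-0.61), and Spry4, which passed the count filter in that fit, was. Without erdafitinib 0 and without FIIN_2 2 members were called. The share of all genes called with 1 compound left out was not set beside these counts.

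RAF inhibitors, which block the kinase between RAS and MEK, split by compound. LY3009120, a pan-RAF inhibitor on plate 3, had 13.4 CPM of Etv4, 8.04 CPM of Fosl1, 26.8 CPM of Spred1 and 8.04 CPM of Hbegf, below all 45 other screening wells of the plate for each gene (lowest other wells 53.6, 34.7, 39.9 and 14.4 CPM). Its Ccnd1 was 662 CPM, against a median of 1640 CPM in the other wells. CCT196969, an inhibitor of RAF and SRC kinases on plate 1, had 25.7 CPM of Etv4, 33.1 CPM of Etv5, 0 counts of Fosl1, 665 CPM of Ccnd1 and 22.0 CPM of Spred1. Dabrafenib, an inhibitor of mutant BRAF, had 148 CPM of Etv4, 119 CPM of Fosl1 and 1409 CPM of Ccnd1, and the compound named BRAF_inhibitor had 109, 103 and 1373 CPM. Both of these lay near the medians of plate 1.

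With the 4 compounds as 1 class 0 of 8 members were called by edgeR, 2 of the 8 had an unadjusted p under 0.05, and DESeq2 also called 0. Etv4 had a log2 fold change of -0.77 ± 0.28 (SE; adjusted p = 0.161, edgeR) and Fosl1 of -0.93 ± 0.32 (adjusted p = 0.116). Of all genes 2.40% were called and 811 had an unadjusted p under 0.05. Without dabrafenib both were called (-1.36 and -1.52), and without BRAF_inhibitor Fosl1 was called (-1.37). No share of all genes called was set beside these fits with a compound left out.

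The differences between these classes were tested in 1 fit of all screening wells. MEK inhibitors had lower Etv4 than RAF inhibitors at -2.34 ± 0.60 (SE; adjusted p = 0.0114, edgeR), lower Etv5 at -2.20 ± 0.56, lower Ccnd1 at -1.73 ± 0.34 (adjusted p = 0.000476) and lower Spred1 at -2.32 ± 0.57. Fosl1 was not called (-2.15 ± 0.69, adjusted p = 0.0541). The 4 of 9 called lower stand beside 1.81% of all genes. Without trametinib 0 were called, with Etv4 at -1.75, Etv5 at -1.58, Ccnd1 at -1.15 and Spred1 at -1.53. The calls of Etv4, Etv5 and Spred1 were also lost without BRAF_inhibitor (-2.08, -1.81 and -2.04) and without dabrafenib (-1.75, -1.96 and -1.97), and those of Etv5 and Spred1 without GDC_0623 (-1.95 and -2.02). Fosl1 was called without LY3009120 (-2.53), CCT196969 (-2.51), Ro_5126766 (-2.44), erdafitinib (-2.16) or SU_5402 (-2.15), and Egr1 without LY3009120 or CCT196969. No share of all genes was set beside the calls with a compound left out.

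For MEK against FGFR inhibitors 0 of 9 members were called by edgeR, 6 had an unadjusted p under 0.05, and DESeq2 called 0, with 4 left without an adjusted p. The difference in Etv4 was -2.06 ± 0.61 (SE; adjusted p = 0.0868, edgeR), and 0.587% of all genes were called, with 787 under an unadjusted p of 0.05. Leaving out 1 compound gave 3 lower without erdafitinib, 2 without FIIN_2, and 1 each without GDC_0623 and Ro_5126766. Without SU_5402 0 were called and the difference changed sign for Etv4 (0.05 ± 0.80, SE), Etv5 (0.27 ± 0.74), Fosl1 (1.17 ± 1.02), Ccnd1 (0.23 ± 0.37) and Dusp4 (0.54 ± 1.71). For RAF against FGFR inhibitors edgeR called 0 of 9, of which 3 had an unadjusted p under 0.05, and DESeq2 called 0 (0% of all genes called, 702 under 0.05). Without SU_5402 4 members were called higher in RAF than in FGFR inhibitors, among them Fosl1 at 3.32 ± 0.70 and Ccnd1 at 1.97 ± 0.35. For the counts with 1 compound left out, the share of all genes called was not set beside them. The MEK and FGFR inhibitors stood on separate plates, so these differences lean on the plate term.

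**Figure D2:**
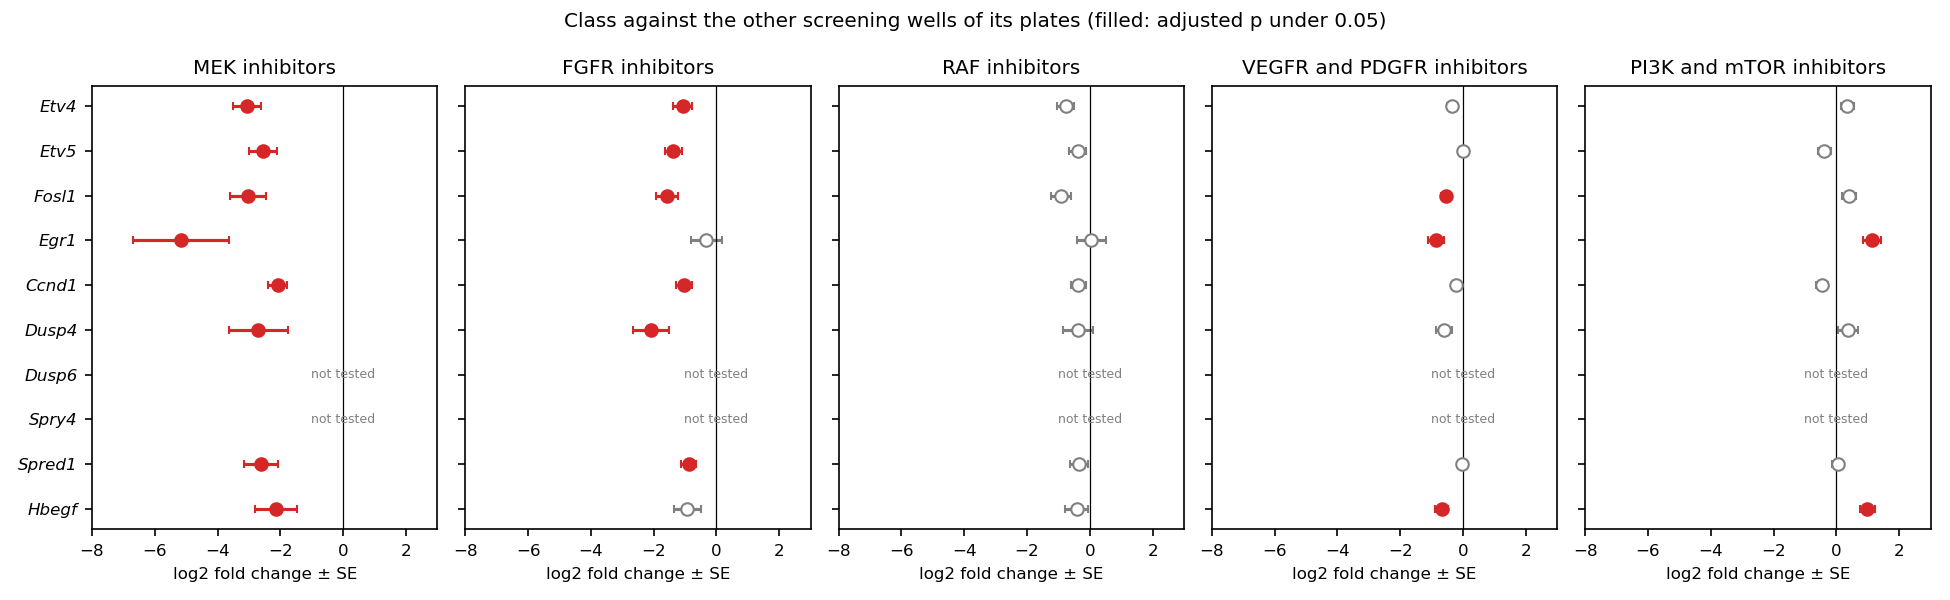
Log2 fold change of each gene, with its SE, for MEK, FGFR, RAF, VEGFR and PDGFR, and PI3K and mTOR inhibitors against the remaining screening wells of their plates; filled points were called. MEK inhibitors lie below 0 for all 8 genes tested, FGFR inhibitors less far below, and Egr1 and Hbegf lie above 0 for PI3K and mTOR inhibitors. The point for Egr1 in MEK inhibitors is a fitted value from wells at 0 counts.

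Inhibitors of the VEGF and PDGF receptors (14 compounds, 16 wells over 3 plates) had lower Hbegf, Fosl1 and Egr1. Hbegf had medians of 28.6 CPM on plate 1, 24.4 CPM on plate 2 and 16.4 CPM on plate 3 in these wells, against 45.5, 39.1 and 46.1 CPM in the others. It was lower at -0.68 ± 0.20 on the log2 scale (SE; adjusted p = 0.029, edgeR), Fosl1 at -0.56 ± 0.16 (0.0267) and Egr1 at -0.86 ± 0.26 (0.036). Etv4 (-0.36 ± 0.14) and Etv5 (-0.00 ± 0.13) were not called, so 3 of 8 were lower beside 2.21% of all genes. Within the plates Hbegf was at -0.69 ± 0.31, -0.57 ± 0.29 and -1.12 ± 0.51 and Fosl1 at -0.56 ± 0.25, -0.41 ± 0.24 and -1.09 ± 0.35 on plates 1, 2 and 3, and 0 members were called on any plate alone. With no filter on low counts 0 were called as well.

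Inhibitors of PI3K and mTOR, kinases of the parallel PI3K pathway (5 compounds, 6 wells), were the only class with members called higher. Hbegf had 67.9, 69.5 and 149 CPM in the 3 wells of plate 1, against a median of 40.0 CPM in the others. It had 80.9 and 88.6 CPM on plate 2, against a median of 38.8 CPM, and 91.3 CPM on plate 3, against a median of 45.6 CPM. Every well of the class was above its plate's median. Hbegf was higher by 0.98 ± 0.24 (SE; adjusted p = 0.0011, edgeR) and Egr1 by 1.15 ± 0.29 (adjusted p = 0.00164), which makes 2 of 8 beside 10.8% of all genes. The ETS factors and Ccnd1 were not called (Etv4 0.35 ± 0.20, Etv5 -0.39 ± 0.21, Ccnd1 -0.46 ± 0.19). On plate 1 alone the values were 1.02 ± 0.36 for Hbegf and 1.37 ± 0.45 for Egr1, neither called.

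In the other 21 classes tested, which include 12 inhibitors of EGFR and HER2 as well as ALK, MET, SRC family, p38 and AKT inhibitors, edgeR called 0 of 172 tests of members, 6 had an unadjusted p under 0.05, and DESeq2 called 0. Over all genes 0.435% of the tests in these classes were called.

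Taking compounds one at a time, each against the other wells of its plate, the members with enough counts for the test were Etv4, Etv5, Fosl1, Ccnd1 and Spred1 on every plate and Hbegf on plates 2 and 3. Over the 211 compounds Etv4 was lower with 5 and higher with 0, Etv5 lower with 8 and higher with 0, Fosl1 lower with 6 and higher with 2, Ccnd1 lower with 6 and higher with 0, and Spred1 lower with 6 and higher with 0. Hbegf, tested for 124 compounds, was higher with 1 and lower with 0. Over all genes and compounds (924555 tests) 0.451% were called lower and 0.548% higher. With 1 well for most compounds, the lone well is assumed to vary like the other wells of its plate.

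**Figure D3:**
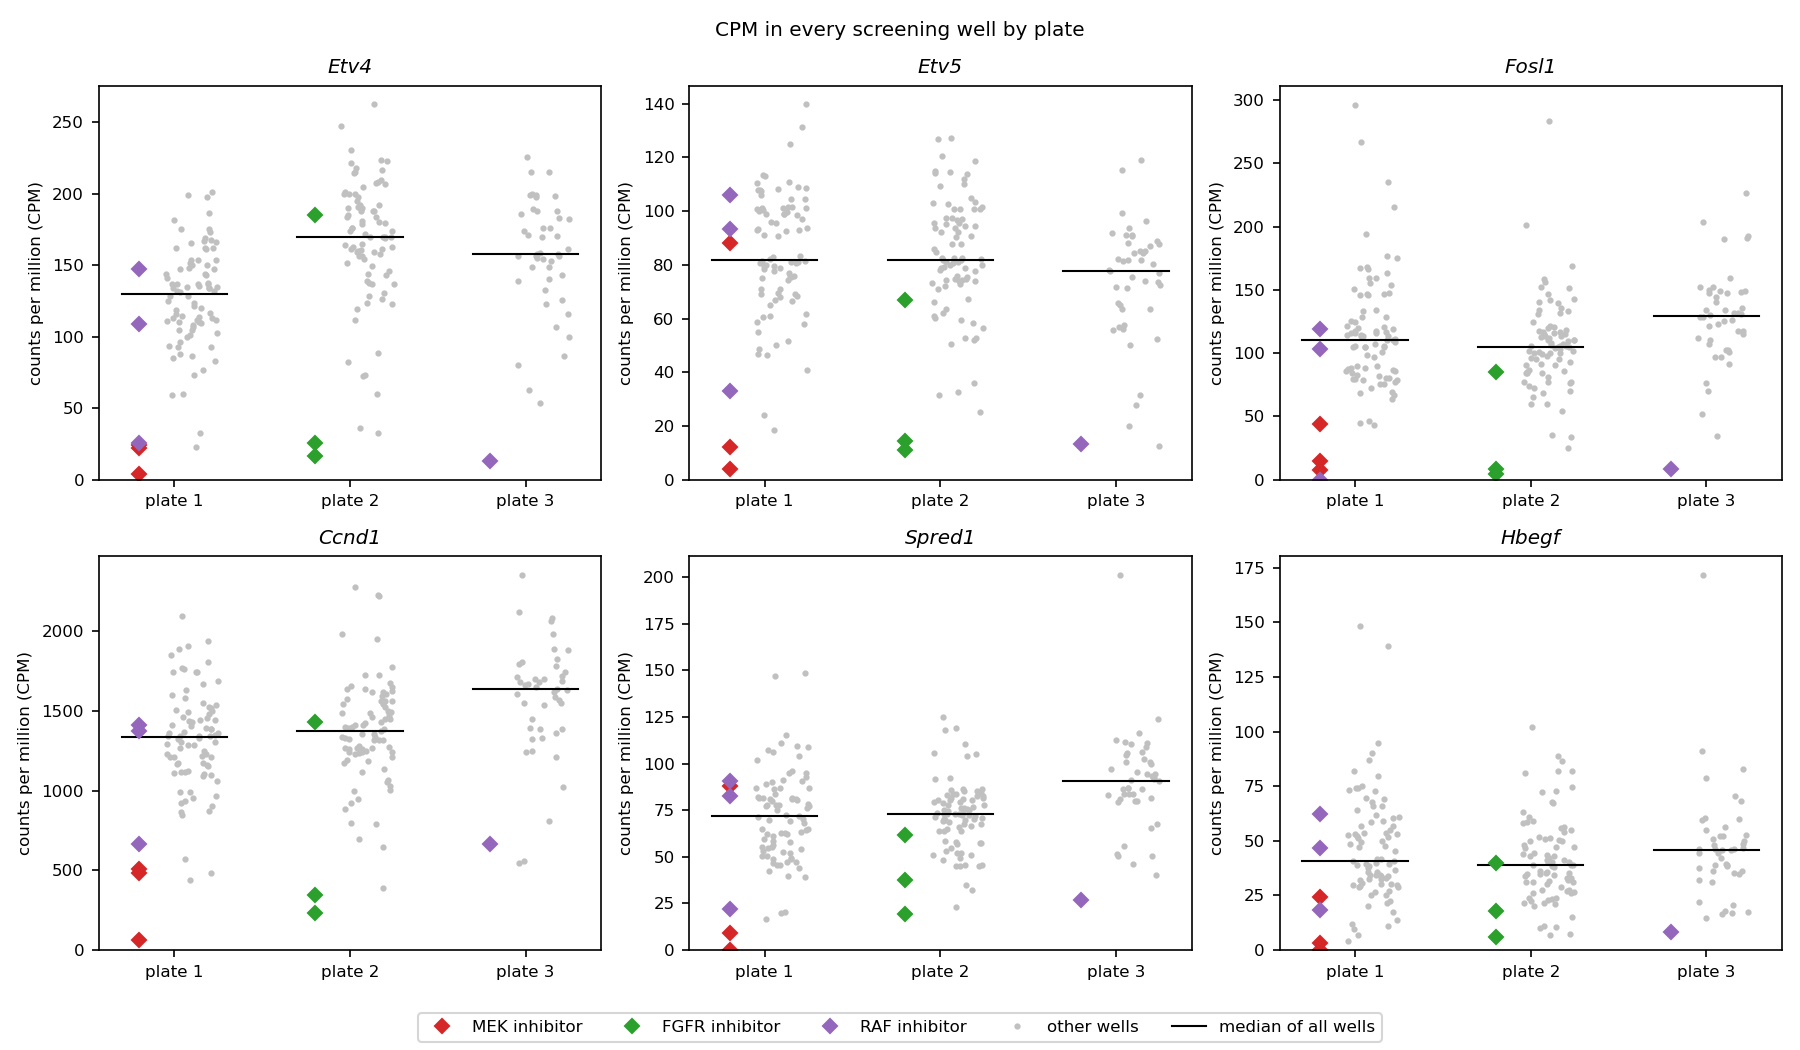
CPM, on linear axes, of the 6 genes with the most counts in every screening well by plate; coloured diamonds are the MEK, FGFR and RAF inhibitor wells, gray points the other wells, and lines the median of all wells. The marked wells of trametinib, GDC_0623, erdafitinib, FIIN_2 and LY3009120 lie in the low tail for Etv4, Etv5 and Fosl1.

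Trametinib lowered all 5 members tested (8.20% of genes on its plate were called lower). Ccnd1 had a log2 fold change of -4.45 ± 0.60 (SE; adjusted p = 2.46e-08, edgeR). Etv4 and Etv5 were down to 1 count each, ratios of 0.0321 (95% counting interval 0.000814 to 0.179) and 0.0482 (0.00122 to 0.268) to the mean of the other wells, and Fosl1 to 2 counts, a ratio of 0.0703 (0.00852 to 0.254). Spred1 had 0 counts and was at least 5.92-fold lower.

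GDC_0623 lowered 4 of 5 (1.92% of genes lower): Etv4 at -2.40 ± 0.67 (SE; adjusted p = 0.0167, edgeR), Etv5 at -2.80 ± 0.69, Fosl1 at -2.92 ± 0.88 and Spred1, which had 3 counts and a ratio of 0.127 (0.0262 to 0.371). Ccnd1 was at -1.39 ± 0.53 and was not called (adjusted p = 0.111). Ro_5126766 had 0 of 5 called by edgeR, 1 with an unadjusted p under 0.05, and 1.02% of genes called in either direction, in the shallowest of the screening wells kept.

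Erdafitinib lowered 5 of 6 (5.77% of genes lower), with Etv4 at -3.36 ± 0.62 (SE; adjusted p = 5.61e-05, edgeR), Etv5 at -2.94 ± 0.56, Ccnd1 at -2.02 ± 0.46 and Spred1 at -1.90 ± 0.44, and Fosl1 at 3 counts, a ratio of 0.0392 (0.00809 to 0.115). FIIN_2 lowered 4 of 6 (6.48% of genes lower), with Etv4 at -2.80 ± 0.69, Etv5 at -2.64 ± 0.67 and Ccnd1 at -2.68 ± 0.48 (adjusted p = 5.13e-05), and Fosl1 at 3 counts, a ratio of 0.0820 (0.0169 to 0.240). Spred1 at -1.03 ± 0.48 was not called with FIIN_2 (adjusted p = 0.142). SU_5402 had 0 of 6 called, 0 with an unadjusted p under 0.05, and 0% of genes called.

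LY3009120 lowered 4 of 6 (2.47% of genes lower), with Etv4 at -3.48 ± 0.63 (SE; adjusted p = 0.000162, edgeR), Etv5 at -2.40 ± 0.71, Spred1 at -1.67 ± 0.50 (0.0376), and Fosl1 at 3 counts, a ratio of 0.0620 (0.0128 to 0.181). CCT196969 lowered 1 of 5 (0.727% of genes lower), which was Fosl1 at 0 counts, at least 10.4-fold lower. Etv4 with CCT196969 was at -2.26 ± 0.70 and was not called (adjusted p = 0.0579). Dabrafenib and BRAF_inhibitor had 0 of 5 called, 0 with an unadjusted p under 0.05, and 0% of genes called.

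The 4 rarely detected genes were seen in these wells only as counts. Dusp4, Dusp6 and Spry4 had 0 counts each with LY3009120, as did Egr1, at least 2.80-fold lower there than in the other wells. Dusp6 also had 0 with GDC_0623, Ro_5126766, erdafitinib and FIIN_2. It was at 0 in 31 of the 90 wells of plate 1 and 13 of the 87 wells of plate 2. With 1 count each, trametinib (4.01 CPM) and CCT196969 (3.67 CPM) lay above the plate 1 median of 2.82 CPM for Dusp6. Dabrafenib and BRAF_inhibitor, also at 1 count, had 2.59 CPM each. Spry4 had 0 counts among 725411 with erdafitinib, at least 2.03-fold lower than the other wells. Over the 3 FGFR inhibitor wells Spry4 had 3 counts, a ratio of 0.190 (95% counting interval 0.0391 to 0.555), and Dusp6 had 2, a ratio of 0.228 (0.0276 to 0.824). Over the 3 MEK inhibitor wells Spry4 had 2 counts, a ratio of 0.471 with an interval of 0.0570 to 1.70. Dusp6 had 1 count there, a ratio of 0.503 (0.0127 to 2.80), so a fall of either was not detectable at this depth.

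Outside the MEK, FGFR and RAF classes 4 compounds had at least 2 members called. NT157, which targets IRS proteins, raised and lowered members at once on plate 2, where 20.9% of genes were called higher and 18.0% lower. Fosl1 was at 283 CPM, the highest of the 87 wells (log2 fold change 1.66 ± 0.41, SE; adjusted p = 0.000788, edgeR), while Ccnd1 at 390.9 CPM (-1.62 ± 0.47), Etv5 at 25.0 CPM (-1.55 ± 0.55) and Spred1 at 23.1 CPM (-1.42 ± 0.48) were lower. APTO_253, described as an inducer of KLF4 and inhibitor of MYC, had Fosl1 at 296 CPM, the highest of the 90 wells of plate 1 (1.38 ± 0.47, adjusted p = 0.0432), and lower Ccnd1 at 436 CPM (-1.62 ± 0.54, adjusted p = 0.0407), beside 5.96% of genes higher and 5.38% lower. With the count filter met in 1 well, an alternative chosen after seeing the data, neither call of APTO_253 was kept, with Fosl1 at 1.34 ± 0.47 (adjusted p = 0.0789) and Ccnd1 at -1.66 ± 0.56 (0.0665). In both wells the AP-1 gene and the cyclin thus lay near opposite ends of the plate.

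BEZ235, an inhibitor of PI3K and mTOR, lowered Etv5 to 12.6 CPM (-2.41 ± 0.77, SE; adjusted p = 0.0229, edgeR) and Ccnd1 to 544 CPM (-1.39 ± 0.39), the lowest of the 46 wells of plate 3 for both, beside 8.38% of genes lower. LDC4297, an inhibitor of CDK7, lowered Etv5 to 28.0 CPM (-1.56 ± 0.58) and Spred1 to 39.9 CPM (-1.30 ± 0.44) and had the highest Hbegf of plate 3, 172 CPM (1.78 ± 0.39, adjusted p = 0.000632), beside 15.3% of genes lower and 11.8% higher.

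The bC8FAE wells alone can serve as the comparison on plate 3, at the price of 5 wells in place of 45. They include bC8FAE well 4, one of the shallowest media wells. Etv4, Etv5, Fosl1, Egr1, Ccnd1, Spred1 and Hbegf were tested for all 40 compounds, and the shares of all genes given here are not split by direction. Brigatinib, an ALK and EGFR inhibitor named here after its values were seen, then had 4 members lower: Etv4 at -1.61 ± 0.32 (SE; adjusted p = 0.000801, edgeR), Etv5 at -1.87 ± 0.44, Fosl1 at -1.42 ± 0.32 and Ccnd1 at -1.44 ± 0.38, beside 9.36% of all genes called in either direction. LY3009120, BEZ235 and LDC4297 also had members called, beside 9.75%, 22.7% and 31.2% of all genes, and over the 40 compounds of plate 3 the share was 2.75% of all tests. Compounds with Etv4 lower numbered 3 against bC8FAE wells and 1 against all other wells of the plate, with Fosl1 lower 3 and 1, with Ccnd1 lower 3 and 1, and with Spred1 lower 4 and 2.

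**Figure D4:**
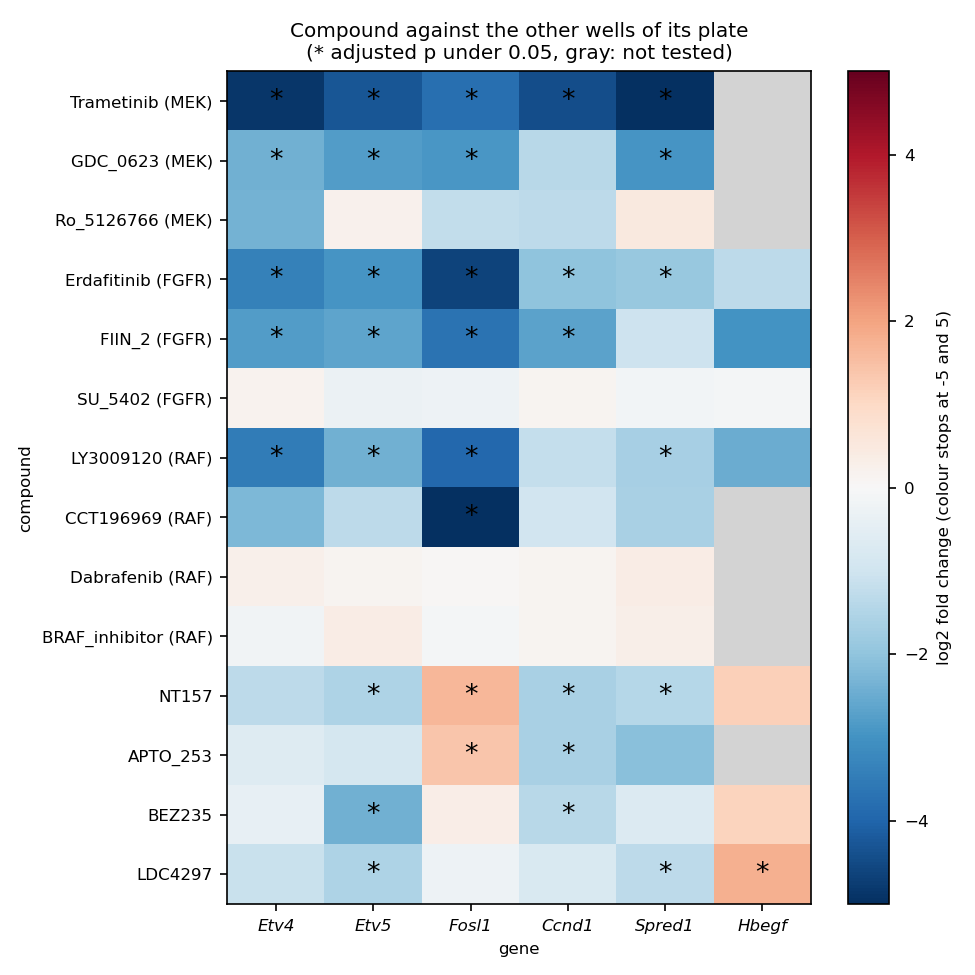
Log2 fold change (colour) of the tested genes for single compounds of the MEK, FGFR and RAF classes and the 4 compounds outside them with at least 2 members called, each against the other wells of its plate; asterisks mark called genes and gray marks genes not tested. Trametinib, GDC_0623, erdafitinib, FIIN_2, LY3009120 and CCT196969 are blue, below 0, for all genes tested, while NT157 and APTO_253 have Fosl1 above 0 and Ccnd1 below 0. Spred1 with Trametinib and Fosl1 with CCT196969 are fitted values from 0 counts.

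Other genes of the pathway, from 4 lists chosen with earlier results of these data known, were counted beside the members. In bC8FAE against MEF, 6 of 15 feedback inhibitors tested were higher and 1 lower (median log2 fold change 0.40), among them Dusp9, an ERK phosphatase (2.52 ± 0.21), Il17rd, an inhibitor of FGF signalling (2.93 ± 0.87), and Spred3 (1.54 ± 0.36). Of 10 ligands and receptors 2 were higher and 6 lower (median -1.40), with Fgf7 at -4.64 ± 0.57, Fgf10 at -3.67 ± 0.57 and Egfr at -3.42 ± 0.32. Of 15 cascade genes 2 were higher and 1 lower, and of 19 other targets 6 were higher and 7 lower, with Hmga2, a chromatin protein, at 1.55 ± 0.13 and Cdc42ep2, an effector of CDC42, at -3.01 ± 0.26. Over all genes tested 14.8% were higher and 17.3% lower.

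The same lists were counted in bC8FAE against bCFAE, where 5.35% of all genes were higher and 5.90% lower. Of 15 feedback inhibitors 1 was higher and 3 lower, of 10 ligands and receptors 1 was higher and 1 lower, of 15 cascade genes 0 were higher and 1 lower, and of 19 targets 1 was higher and 2 lower. Errfi1, an inhibitor of EGFR, was at -1.08 ± 0.15, Lrig1 at -0.98 ± 0.23, the orphan nuclear receptor gene Nr4a1 at -1.69 ± 0.44 and Igf1r at -1.42 ± 0.48. Pdgfrb (1.03 ± 0.30), Sh2b3 (0.65 ± 0.21) and Ccnd3 (0.40 ± 0.12) were higher.

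With MEK inhibitors 5 of 11 feedback inhibitors tested were lower and 1 higher (median -1.10), among them Spred2 at -3.20 ± 0.48 and Dusp9 at -2.94 ± 0.47. Of 17 other targets 5 were lower and 2 higher (median -0.62), with Hmga2 at -3.76 ± 0.40. Of 16 cascade genes 1 was lower and 2 higher, and of 7 ligands and receptors 1 was lower and 2 higher. Over all genes tested 10.4% were lower and 11.8% higher. Ereg, another EGFR ligand, was at -2.90 ± 0.81, while Cdc42ep2 (2.08 ± 0.30), Dusp1 (1.71 ± 0.34), Fgfr2 (1.59 ± 0.47) and Pdgfa (1.42 ± 0.37) were higher. Cdc42ep2 and Hmga2 were thus called in opposite directions in the MEK inhibitor wells and in bC8FAE over MEF.

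Across the 223 screening wells the members tested with every compound, Etv4, Etv5, Fosl1, Ccnd1 and Spred1, varied together. Pearson's r of log2(CPM + 1), after the plate median was removed, had a median of 0.66 over their pairs (0.46 to 0.73). It was 0.33 over all 45 pairs of the 10 genes, which include the 4 genes with few counts. Hbegf, the other well-covered gene, had lower values with most of them. They were 0.15 to Etv5, 0.22 to Spred1, 0.37 to Ccnd1, 0.45 to Etv4 and 0.52 to Fosl1. Wells of a plate share library and depth, so these values are a description. No median over pairs of other genes was set beside them, so they do not show a likeness particular to these genes. Much of this rested on a few wells: without the MEK, RAF and FGFR inhibitor wells the median was 0.40 over 213 wells (-0.01 to 0.53), and the Spearman correlation over all 223 wells was 0.35.

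**Figure D5:**
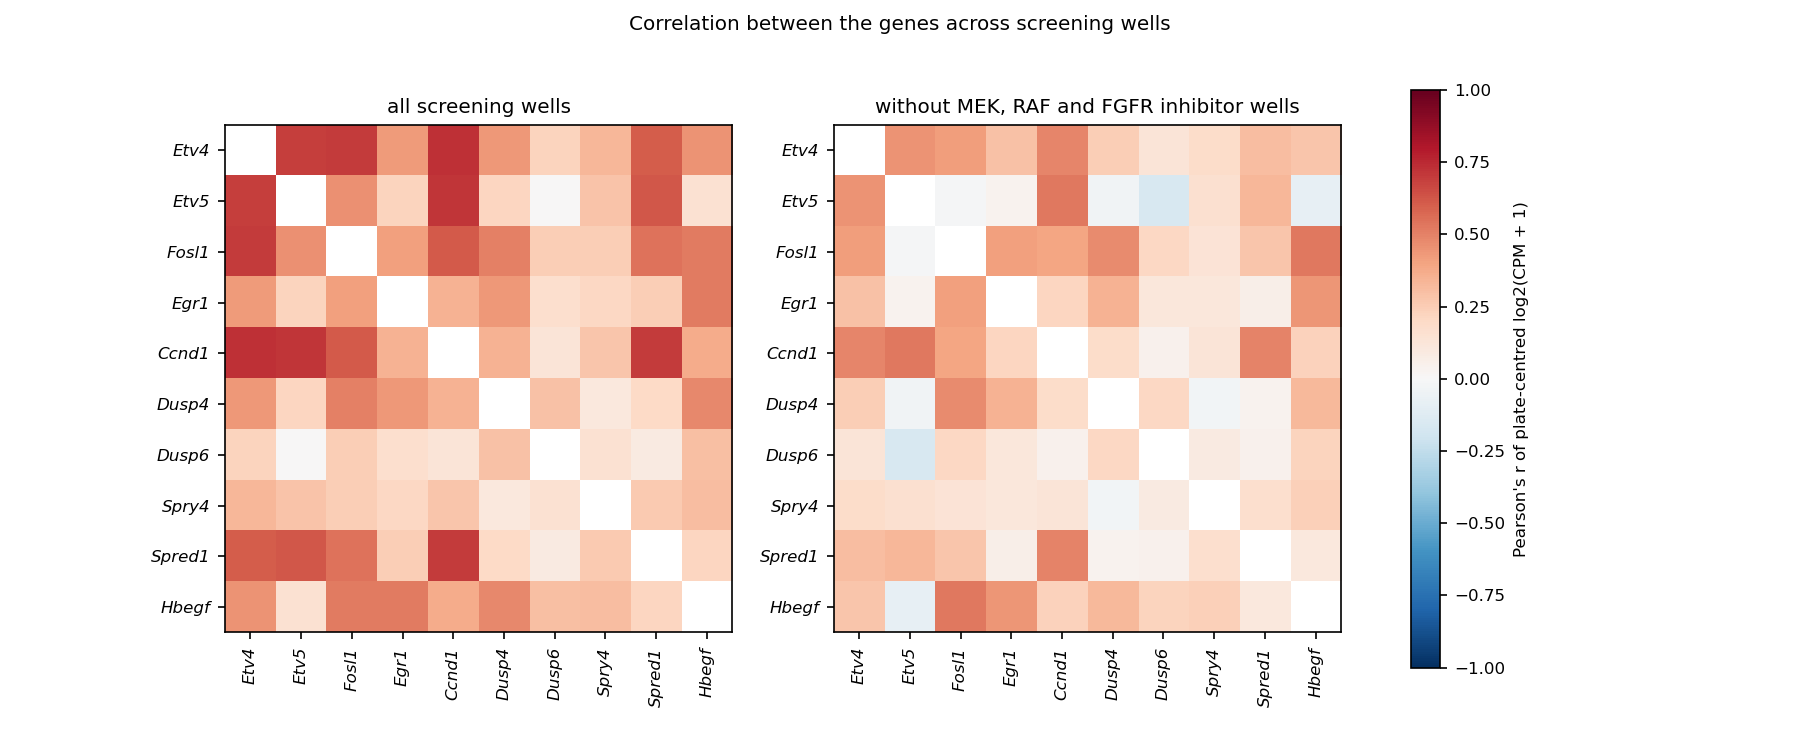
Pearson's r between the 10 genes over 223 screening wells, from log2(CPM + 1) with the plate median removed (left), and over the 213 wells without MEK, RAF and FGFR inhibitors (right). On the left the block of Etv4, Etv5, Fosl1, Ccnd1 and Spred1 has pairs of 0.46 to 0.73, and Dusp6, Spry4 and Egr1, which have few counts, have weaker values with most genes; on the right the same block has pairs of -0.01 to 0.53.

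Among 7320 genes averaging 10 CPM or more over these wells, those most like the mean of the members were Ptges (r = 0.83), Upp1 (0.82), Ercc1 (0.79), Spp1 (0.78) and Fam78b (0.78). Hmga2 recurred among the closest genes of single members, with r = 0.87 to Ccnd1, 0.80 to Etv4 and 0.76 to Spred1, and Parvb was at 0.79 to Ccnd1, 0.79 to Etv4 and 0.67 to Spred1. The closest gene to Etv4 was Ubtd1 (0.81), and Etv5 was closest to Por (0.78), Ermp1 (0.77) and Col18a1 (0.75). Fosl1 was closest to Spp1 (0.82), Ercc1 (0.78) and Ctsl (0.78), and Ccnd1 after Hmga2 to Angptl4 (0.80). Spred1 had Ermp1 at 0.71. Hbegf was closest to Smox (0.71), Tnfrsf12a (0.69) and Upp1 (0.69), and Egr1 to Arf6 (0.57), Tnfrsf12a (0.57) and Ptpre (0.56). For the rarely detected Dusp4, Dusp6 and Spry4 no gene was above 0.55, the closest being Ercc1, Spp1 and Ctsl (0.55, 0.55 and 0.54), Chic2, Tm4sf1 and Slc25a5 (0.42, 0.41 and 0.39), and Gm12166, Ank and Krt23 (0.40, 0.37 and 0.37). Without the MEK, RAF and FGFR inhibitor wells Hmga2 stayed among the 3 closest genes of Ccnd1 alone (0.79), Parvb was among those of no member, and the value of Ptges to the mean of the members was 0.69. By Spearman over all 223 wells Tubb6 was closest to that mean (0.63).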

How the data were processed

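The authors deposited 1 table of whole-number counts per gene and well, with no scaling of their own as the values show, and the submitters' processing notes name STAR and the build mm10. Which version, counter and annotation were used, and whether counting used the strand or molecular identifiers, is not given in the sources that were used. The table held 274 columns and 20471 genes, of which 26 carried names turned into dates. The wells were given to 3 plates by the barcode lists, whose sequences and numbers (deposited values of another kind, neither counts nor levels) were not used otherwise. The column CHR_6494 was listed under another unit for its name and held counts. A total of 254 columns were used and 20 were not, because their plate was unclear, their name was in no list or they repeated a column. Screening wells under 10% of their plate's median total were left out.

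From the counts, CPM was computed over the total of each well. Tests used edgeR 4.0.16 in R 4.3.3: scaling by TMM, filterByExpr (minimum count 10), the robust quasi-likelihood test and Benjamini-Hochberg adjustment over all genes tested, called at an adjusted p under 0.05. SE is the log2 fold change divided by the square root of F. Media entered 1 fit of 30 wells without a block. Class fits had a plate term, and the spread of a single compound's fit came from all wells of its plate. DESeq2 1.42.0 was an alternative. For a gene at 0 counts the bound sets the group at 3 counts over its total, and 1 to 3 counts have an exact 95% Poisson interval for the ratio. Bounds and intervals cover counting error only. The fits were tested on simulated data.

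All members are named. Other pathway genes are named when called in bC8FAE over MEF, bC8FAE over bCFAE or MEK inhibitors, at most 4 per direction. Compounds are named in the MEK, FGFR and RAF classes and, outside them, with at least 2 members called. The members, lists, classes and tests were chosen with earlier results of these data known.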

Additional observations from a re-analysis of the deposited data

Results flagged for a closer look

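In groups of 4 or 5 media wells, 4 of 50 gene and medium groups held a well that stood far from the others, where chance flags about 1 in 20. Etv4 was 43.2 CPM in MEF well 3 (6 counts), while the other MEF wells had 17.1 to 17.9 CPM. Spred1 was 201 CPM in bC8FAE well 4 (24 counts), while the other bC8FAE wells had 92.1 to 111 CPM. These are the 2 shallowest of the media wells. Egr1 was 11.0 CPM in bCLFAE well 4 (6 counts), while the others had 27.1 to 30.2 CPM, and Spred1 was 100.0 CPM in bCSFAE well 3, while the others had 87.8 to 89.9 CPM.

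The wells named nocell, which enter no comparison, held reads of these genes. Ccnd1 had 11 counts among 4280 in nocell well 2 and 36 among 25308 in nocell well 3, and Etv4 had 5 counts in nocell well 3, each above the 3 counts that a count of 0 allows. As levels these are 2570 and 1422 CPM of Ccnd1 and 198 CPM of Etv4. The bC8FAE wells averaged 1575 and 164 CPM of these genes and the basal wells 224 and 13.4 CPM. The shallowest screening well kept, Ro_5126766, had 45416 counts. Where the reads in the nocell wells came from was not tested.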

How the results depend on the processing

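Of 248 differences in single genes, 38 had the opposite sign under some alternative, and 0 of these were called either way. They include 5 members for MEK against FGFR inhibitors without SU_5402 (Etv4 0.05, Etv5 0.27, Fosl1 1.17, Ccnd1 0.23 and Dusp4 0.54) and Dusp4 for RAF inhibitors without LY3009120 (0.07). DESeq2 size factors in edgeR changed no call. DESeq2 called 2 of the members lower for FGFR inhibitors and left 4 without an adjusted p, and 6 lower for MEK inhibitors with 1 left without. With no filter on low counts, or on plate 1, 2 or 3 alone, 0 members were lower for VEGFR and PDGFR inhibitors. For PI3K and mTOR inhibitors 0 were higher on plate 1 alone. On plate 3 alone the other classes had 3 calls, all in CDK1/2/7/9 inhibitors. With the ERK pathway and receptor classes taken out of the comparison wells, 5 members were lower for VEGFR and PDGFR inhibitors, 1 for RAF, 1 for PI3K and mTOR, and the other classes had 1 call. In wells with at least 50% of the median total, 1 member was lower for MEK against FGFR inhibitors and Hbegf was higher with 3 compounds. Adjusted over all compounds together, Etv5 was lower with 4, Fosl1 lower with 3 and higher with 1, Ccnd1 lower with 3 and Spred1 lower with 2. Against the bC8FAE wells alone, Etv4, Fosl1 and Ccnd1 were each lower with 3 compounds of plate 3, Spred1 with 4, and Hbegf higher with 2 and lower with 1. The median correlation of 5 members was 0.35 by Spearman, 0.70 in wells with at least 50% of the median total, and, in alternatives chosen after seeing the data, 0.40 without MEK, RAF and FGFR inhibitor wells (0.29 by Spearman) and 0.71 on plate 3 alone. With the count filter met in 1 well, also chosen after seeing the data, Fosl1 was higher with 1 compound, Spry4 lower with erdafitinib (0 counts, adjusted p = 0.0119, edgeR) and Dusp4 higher with NT157 (2.04 ± 0.50, adjusted p = 0.000852). Counts on single plates rest on fewer wells, and the cause of these differences was not tested. Except against the bC8FAE wells, the share of all genes called was not set beside the counts under these alternatives. The same holds for the counts with 1 well or compound left out. A change in the members alone therefore cannot be told from a change over all genes.

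Leaving out 1 well or compound at a time gave 0 to 1 members higher in bC6FAE[2] and in bC6FAE[10] over bCFAE, 1 to 3 higher and 0 to 1 lower in bCLFAE, and 0 to 2 higher and 0 to 1 lower in bCSFAE. For the classes it gave 5 to 8 lower for MEK, 0 to 8 for FGFR, 0 to 2 for RAF, 0 to 1 for PI3K and mTOR, 0 to 6 for MEK against RAF, 0 to 3 for MEK against FGFR, and 0 to 4 higher for RAF against FGFR. Without MEF well 3 and bC8FAE well 4, 1 member was lower in bCLFAE and 3 were higher in bCSFAE. Well numbers did not pair the wells: 32 correlations of same-numbered wells ran from -0.14 to 0.13, 1 of them over 0.1. With the well number as a replicate block 1 member was lower in bCLFAE and 2 were higher in bCSFAE over bCFAE, and the block changed no other count of members. Egr1, Dusp4, Dusp6 and Spry4 were limited by depth, with medians of 1 to 8 counts per well, and a fall of 1 such gene in 1 well is mostly not detectable.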

Other observations

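Compounds aimed at the edges of the ERK pathway were chosen for a look after their target names were known, and of the 5 or 6 members tested for each, edgeR called 0 and 0 had an unadjusted p under 0.05. SUN11602, described as an FGF mimetic, had 158 CPM of Etv4, 74.7 CPM of Etv5 and 1493 CPM of Ccnd1, beside plate 2 medians of 170, 81.9 and 1372 CPM. APS_2_79, which binds the RAF scaffold KSR, had 161, 81.8 and 1392 CPM on the same plate. BIX02188 and BIX02189, inhibitors of MEK5, had 169 and 121 CPM of Etv4 and 900.1 and 1061 CPM of Ccnd1, beside plate 1 medians of 130 and 1334 CPM. The CDK8 and CDK19 inhibitors MSC2530818 and Senexin_A had 188 and 143 CPM of Etv4 and 946 and 1392 CPM of Ccnd1, beside medians of 170 and 1372 CPM on plate 2 and 158 and 1636 CPM on plate 3. As a class these CDK8 and CDK19 inhibitors had Egr1 at -2.16 ± 0.89 on the log2 scale (SE; unadjusted p = 0.0169, adjusted p = 0.741, edgeR), with 0 counts in the MSC2530818 well, and Spry4 at 1.01 ± 0.50 (unadjusted p = 0.0458, adjusted p = 0.866), neither called.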
